A study of Mus musculus with 6 samples.

Results

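miR-191 and miR-425 are 2 microRNAs (miRNAs) encoded side by side on mouse chromosome 9, and each yields a mature RNA from the 5′ arm (5p) and from the 3′ arm (3p) of its hairpin. The 4 members described here, mmu-miR-191-5p, mmu-miR-191-3p, mmu-miR-425-5p and mmu-miR-425-3p, were taken by name from a table of 1034 distinct mature miRNAs, and each had 1 row. They were measured by small RNA sequencing in nephron progenitors from litters of the CD1 strain, either embryonic (E14.5) or newborn (P0). Each stage had 3 samples, and each sample was a pool of kidneys from 1 litter, from which cortical cells were released by brief digestion and then selected on beads with an antibody against the integrin Itga8. No mutant, transgene or drug was involved, and age is the only difference between the stages that the labels name. Nephron progenitors are known by messenger RNAs such as Six2 and Cited1, which small RNA libraries do not measure, so the cell label could not be checked against its own markers.

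A miRNA hairpin is cut by Drosha and then by Dicer into a short duplex. One arm, the guide, is usually kept in an Argonaute protein, where its seed (bases 2 to 8 from the 5′ end) pairs with target messenger RNAs, while the other, the passenger arm, is mostly degraded. Loss of Dicer from nephron progenitors is known to deplete them. The miR-191 and miR-425 hairpins are conserved neighbours processed from a common primary transcript, and miR-191-5p is a frequent choice of reference in miRNA assays because its level is held to be steady across tissues.

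The mature sequences are shown because the seed decides what a miRNA can pair with. They are RefSeq's (GRCm38.p6), read 5′ to 3′, with the seed in capitals, and all 4 members matched an entry at the same position as in the deposited table.
mmu-miR-191-5p: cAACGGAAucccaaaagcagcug
mmu-miR-191-3p: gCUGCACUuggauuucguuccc
mmu-miR-425-5p: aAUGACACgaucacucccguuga
mmu-miR-425-3p: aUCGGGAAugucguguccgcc
The 4 seeds differ from each other. Among the 885 tabulated miRNAs with a RefSeq sequence, the seed of miR-425-5p was shared by 1 other, miR-489-3p, which had at most 5.05 TPM in any library, and the other 3 seeds were shared by none. None of the 4 mature sequences was identical to another, so their reads did not have to be divided among copies. None begins with U, the first base of 42.1% of those 885 miRNAs. miR-191-5p begins with C, miR-191-3p with G and both miR-425 arms with A. GC content was 52.2% in miR-191-5p, 54.5% in miR-191-3p, 47.8% in miR-425-5p and 61.9% in miR-425-3p.

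The hairpins are printed with both mature arms in capitals, to show how the arms that are compared below sit in a common precursor.
Mir191: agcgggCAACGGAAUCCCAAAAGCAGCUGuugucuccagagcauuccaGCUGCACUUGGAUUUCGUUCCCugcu
Mir425: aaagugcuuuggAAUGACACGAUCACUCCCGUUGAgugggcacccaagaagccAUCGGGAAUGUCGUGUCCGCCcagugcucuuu
Mir191 lies at chr9:108568319-108568392 and Mir425 at chr9:108568777-108568861, both on the plus strand of GRCm38, with 384 bases between them. The mature arms lie at chr9:108568325-108568347 (miR-191-5p), chr9:108568367-108568388 (miR-191-3p), chr9:108568789-108568811 (miR-425-5p) and chr9:108568830-108568850 (miR-425-3p). The assignment to Dalrd3, a gene named for a domain that binds anticodons, depends on the annotation. RefSeq's Dalrd3 spans chr9:108567484-108572773 and holds both hairpins, whereas GENCODE M21 starts Dalrd3 at 108569886, which is 1024 bases downstream of Mir425. GENCODE M21 places both hairpins within the long noncoding gene 4833445I07Rik (chr9:108567533-108569174), inside the exon of its unspliced transcript. In its spliced transcript Mir191 falls in the intron and Mir425 just past the last exon. GENCODE also lists a miRNA gene, Gm24083, on the minus strand opposite Mir191, but the deposited table had 0 rows on that strand within 1 kb, and the 4 members were its only rows within 100 kb.

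Scaling and 1 unusual library bear on every level below. Values are in TPM, here reads divided by feature length and scaled to the same total per library, so a gain by abundant miRNAs lowers the rest. The median log2 fold change (P0 over E14.5) of the 670 miRNAs averaging 1 TPM or more was −1.20 in TPM. It was −0.17 after median-of-ratios scaling, which divides each library by its median ratio to the mean profile, and each difference is therefore given on both scales. Depth ranged from 2649506 to 23691028 reads at E14.5 and from 21508833 to 34934526 at P0. P0 replicate 1 stood apart from its group: its profile over the 670 miRNAs had a mean Pearson correlation of 0.948 with libraries of the other stage and 0.908 with those of its own, against 0.878 and 0.945 for P0 replicate 2. The stage differences of the 4 arms are therefore also given without it.

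Only miR-425-5p, the guide of its hairpin, changed past the threshold between the stages, and it did so in TPM alone. The miR-191-5p guide, the most abundant of the 4, had nearly equal mean log2 levels at both stages in TPM, with a wide spread inside each stage. The passenger arms miR-191-3p and miR-425-3p were lower on average at P0 in TPM and higher on average after scaling, without passing the test on either scale. Thus 1 of the 4 arms was called in TPM, where 34.2% of all tested miRNAs were called, and 0 of 4 after scaling, where 10.9% were called (limma, Benjamini-Hochberg adjusted p under 0.05 over the 670 miRNAs). The 10.9% rests on all 6 libraries. After scaling 0 miRNAs were called without E14.5 replicate 1, E14.5 replicate 3 or P0 replicate 2 (limma), 7 without E14.5 replicate 2 and 2 without P0 replicate 3, but 332 (48.2%) without P0 replicate 1. In limma's unadjusted test 1 of 4 arms was under 0.05 on each scale, miR-425-5p in TPM and miR-191-5p after scaling, against 49% of all tested miRNAs in TPM and 34% after scaling.

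miR-191-5p reached 1676, 3932 and 2018 TPM in replicates 1, 2 and 3 of E14.5, and 5508, 1779 and 1451 TPM in replicates 1, 2 and 3 of P0. The stages overlapped fully, since P0 held both the highest and the lowest library. Its rank from the top lay between 32 and 67 of the 1034 miRNAs in every library. The mean was 2542 ± 1216 TPM at E14.5 and 2913 ± 2253 at P0 (n = 3, SD), and the limma log2 fold change was 0.03 (SE 0.59, 95% interval −1.25 to 1.32, adjusted p = 0.973). A near-zero estimate with an interval of this width does not show a steady level. Without P0 replicate 1 the estimate was −0.56 (limma adjusted p = 0.199), and it was also below 0 without E14.5 replicate 1 (−0.22) or E14.5 replicate 3 (−0.08).

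After median-of-ratios scaling miR-191-5p had 1109, 2676 and 1177 scaled TPM at E14.5 and 6280, 3370 and 2558 at P0. A single library, E14.5 replicate 2, lay within the range of P0, just above its lowest value. The log2 fold change on this scale was 1.32 (SE 0.51, 95% interval 0.18 to 2.46, limma adjusted p = 0.104). It was 0.90 without P0 replicate 1 (limma adjusted p = 0.0947). The libraries with the highest level at each stage were also the deepest of that stage, E14.5 replicate 2 with 23691028 reads and P0 replicate 1 with 34934526. The part of depth in these levels was not tested.

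miR-425-5p stood at 289, 306 and 204 TPM at E14.5 and at 119, 54.0 and 73.1 TPM at P0. Every P0 library was below every E14.5 library, as for 46.4% of all tested miRNAs. The mean fell from 266 ± 54.5 to 82.2 ± 33.7 TPM (SD, n = 3), a ratio of means of 3.24, and the limma log2 fold change was −1.74 (SE 0.55, adjusted p = 0.0306). Without P0 replicate 1 it was −2.04 (limma adjusted p = 0.000495), in a fit that called 61% of all miRNAs tested. The call was lost when any of the other 5 libraries was left out, with limma adjusted p between 0.0818 without E14.5 replicate 2 and 0.153 without P0 replicate 2, and values of 0.105, 0.0889 and 0.0995 without E14.5 replicate 1, E14.5 replicate 3 and P0 replicate 3.

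On the scaled values miR-425-5p had 191, 208 and 119 TPM at E14.5 and 136, 102 and 129 at P0, and the stages overlapped. Its log2 fold change there was −0.46 (SE 0.45, 95% interval −1.46 to 0.53, limma adjusted p = 0.482), and −0.60 without P0 replicate 1 (limma adjusted p = 0.191). It thus lay below the median of all tested miRNAs on both scales (−1.20 and −0.17). Its place among the 670 log2 fold changes, counted from the most negative, was percentile 32.2 in TPM and 42.4 after scaling, while miR-191-5p was at 81.9 and 84.2.

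miR-191-3p, the passenger arm, had 20.4, 18.5 and 25.3 TPM at E14.5 and 15.2, 10.8 and 9.03 at P0. These values rest on 54, 435 and 129 reads at E14.5 and on 529, 239 and 194 reads at P0, so the first E14.5 library was the least precise. The stages did not overlap in TPM, as for 49.6% of tested miRNAs. After scaling the values did not overlap either, but in the other order, with 12.6 to 14.7 at E14.5 and 15.9 to 20.4 at P0 (35.4% of tested miRNAs did not overlap on that scale). The limma log2 fold change was −0.84 in TPM (SE 0.56, 95% interval −2.05 to 0.37, adjusted p = 0.242) and 0.37 after scaling (SE 0.50, adjusted p = 0.634). Without P0 replicate 1 it was −1.03 in TPM (limma adjusted p = 0.0726), and on the scaled values 0.33.

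miR-425-3p, the passenger arm of the other hairpin, had 41.7, 41.8 and 45.8 TPM at E14.5, the narrowest range of the 4 arms at that stage. At P0 it had 46.0, 17.0 and 20.7 TPM, so replicate 1 was above all E14.5 libraries and the other 2 were below all of them. The limma log2 fold change in TPM was −0.74 (SE 0.59, 95% interval −2.02 to 0.53, adjusted p = 0.320). Without P0 replicate 1 it was −1.16 and passed the threshold (limma adjusted p = 0.0309), as did 61% of all miRNAs tested in that fit. After scaling it had 26.7 to 28.5 at E14.5 and 32.2 to 52.4 at P0, without overlap. The log2 fold change there was 0.50 with SE 0.49 (limma adjusted p = 0.482), and 0.25 without P0 replicate 1.

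**Figure D1:**
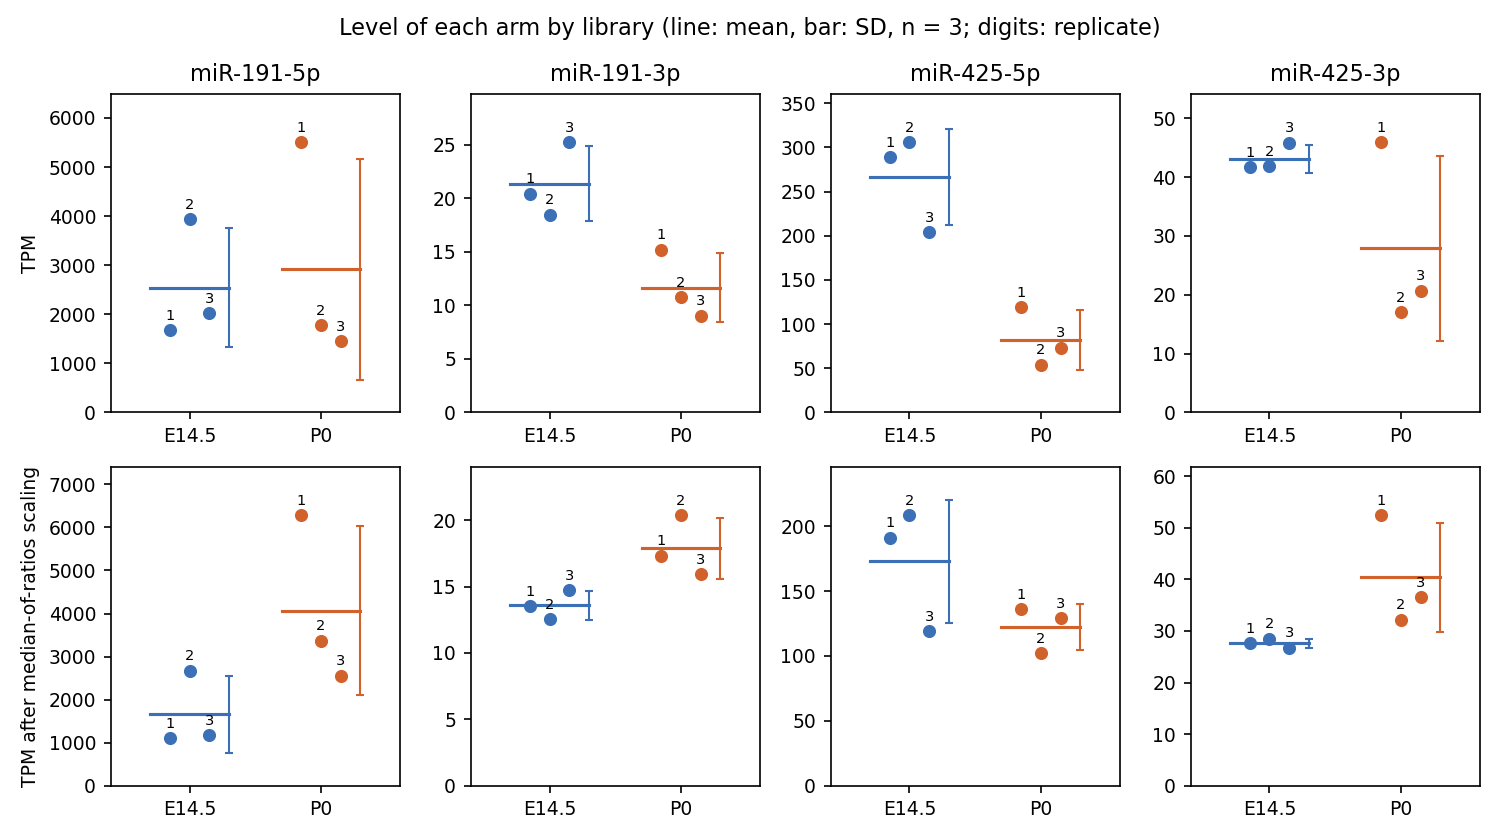
TPM of each arm (upper row) and TPM after median-of-ratios scaling (lower row) for the 3 E14.5 and 3 P0 libraries, with the replicate number beside each point, the mean as a line and the SD as a bar. miR-425-5p is lower at P0 in TPM and overlaps after scaling, whereas miR-191-5p overlaps on both scales.

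In the authors' deposited table none of the 4 arms had an adjusted p-value under 0.05. The share of all its miRNAs under 0.05 was not counted, so this result has no background rate beside it. The authors' deposited table put miR-191-5p at a log2 change of 0.73 (standard error 0.57, adjusted p = 0.399). For miR-425-5p the authors' deposited table gave −0.66 (standard error 0.61, adjusted p = 0.476). The passenger arms had 0.42 (miR-191-3p, adjusted p = 0.728) and 0.47 (miR-425-3p, adjusted p = 0.651) in the authors' deposited table. All of these signs were those found here after median-of-ratios scaling.

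Ratios inside a library do not depend on how libraries are scaled. None of the 5 examined passed a test after adjustment. The stages did not overlap for 3 of them, and over all comparable ratios they did not overlap for 32.2% of arm ratios, 41.7% of ratios between neighbouring hairpins and 34.2% of arm ratios of neighbours set against each other. The ratio of miR-191-5p to miR-425-5p, the 2 guides, was 5.80, 12.8 and 9.88 at E14.5 and 46.1, 33.0 and 19.8 at P0. The lowest P0 ratio was above the highest E14.5 ratio. The mean log2 ratio was 3.18 ± 0.58 at E14.5 and 4.96 ± 0.61 at P0 (n = 3, SD), a difference of 1.79, or 3.45-fold. By exact permutation of the stage labels, two-sided, p was 0.1, as low as this number of libraries permits, and 0.167 after Benjamini-Hochberg adjustment over the 5 ratios examined. The difference lay between 1.47 and 2.11 with each library left out in turn.

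The ratio of the passenger arms, miR-191-3p to miR-425-3p, showed no such separation. It was 0.490, 0.441 and 0.551 at E14.5 and 0.331, 0.632 and 0.436 at P0, so the P0 libraries spanned the E14.5 range. The mean log2 difference was −0.13 (exact two-sided permutation p = 0.7, adjusted 0.7; SD 0.16 at E14.5 and 0.47 at P0, n = 3), and its sign depended on the library left out, with values from −0.37 to 0.09.

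Within the miR-425 hairpin the 5p arm outnumbered the 3p arm in every library, by a smaller margin in each P0 library than in any E14.5 library. The ratio of miR-425-5p to miR-425-3p was 6.92, 7.32 and 4.46 at E14.5 and 2.60, 3.17 and 3.53 at P0, without overlap. In reads, the 5p arm held 88.4% (95% Wilson interval 86.1 to 90.3), 88.9% (88.3 to 89.6) and 83.1% (80.9 to 85.0) of the hairpin's reads in the E14.5 libraries. It held 74.1% (72.9 to 75.2), 77.7% (75.6 to 79.7) and 79.5% (77.7 to 81.2) in the P0 libraries. The mean log2 ratio was 2.61 ± 0.39 at E14.5 and 1.62 ± 0.22 at P0 (n = 3, SD; exact two-sided permutation p = 0.1, the smallest possible, adjusted 0.167).

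Within the miR-191 hairpin the 5p arm made up 98.8% to 99.7% of the reads in every library. The ratio of miR-191-5p to miR-191-3p was 82.0, 213 and 79.9 at E14.5 and 362, 165 and 161 at P0, and the stages overlapped. The mean log2 ratio was 6.80 ± 0.81 at E14.5 and 7.73 ± 0.66 at P0 (n = 3, SD; exact two-sided permutation p = 0.3, adjusted 0.375). Setting the hairpins against each other, the 5p to 3p ratio of miR-191 was 11.9, 29.1 and 17.9 times that of miR-425 at E14.5 and 139, 52.2 and 45.5 times at P0. The stages did not overlap in this comparison of the hairpins, with a log2 difference of 1.91 (exact two-sided permutation p = 0.1, the smallest possible, adjusted 0.167), or 1.41 at the lowest and 2.25 at the highest with each library left out in turn.

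**Figure D2:**
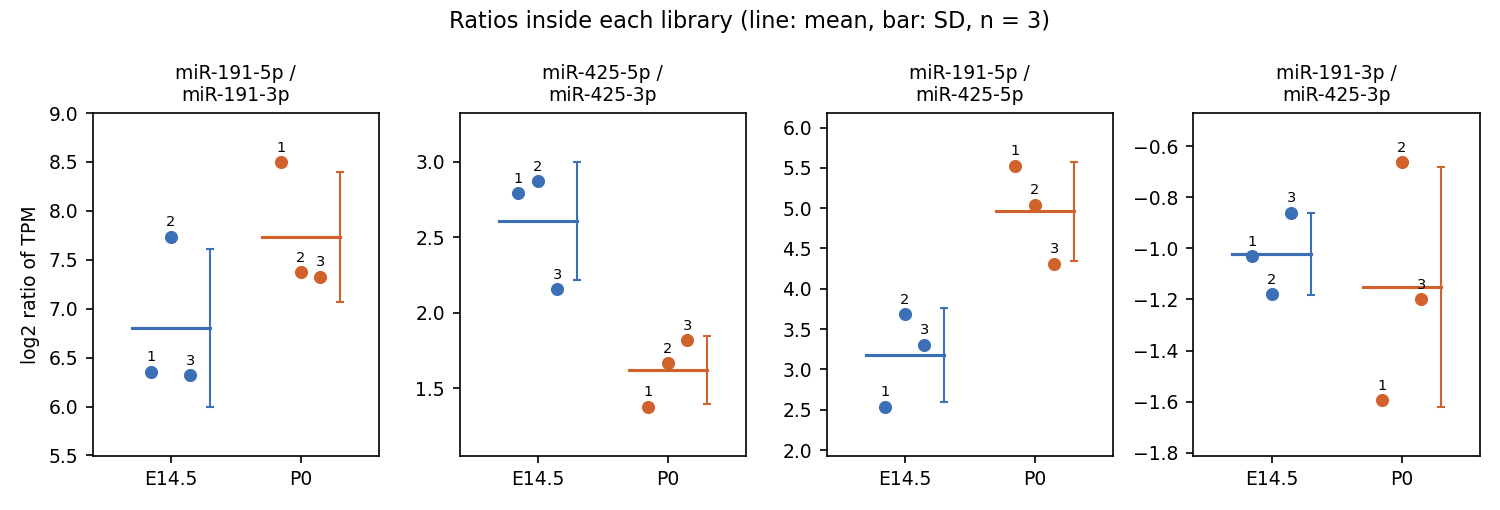
Log2 ratios of TPM inside each library for the arms of each hairpin, the 2 guides and the 2 passenger arms, at E14.5 and P0 (points: libraries with replicate number; line: mean; bar: SD, n = 3). The ratio of the guides is higher in all 3 P0 libraries than in any E14.5 library, and the arm ratio of miR-425 is lower in all 3, while the other 2 ratios overlap.

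These ratios were then read against all others of their kind. A limma fit of the log2 5p to 3p ratio over 202 hairpins with both arms averaging 1 TPM or more called 0 of them (0%) after adjustment, with 56 at an unadjusted p under 0.05. Without the variance trend, a setting chosen after seeing the data, limma called 0 with 57 unadjusted. miR-425 had a change of −0.998 in its log2 arm ratio (SE 0.36, limma unadjusted p = 0.0292, adjusted p = 0.166) and miR-191 of 0.87 (SE 0.61, limma adjusted p = 0.327). Without P0 replicate 1 these were −0.89 (limma adjusted p = 0.101) and 0.47 (limma adjusted p = 0.482), in a fit that called 44.1% of hairpins. The value of miR-191 was 1.33 without E14.5 replicate 2 (limma adjusted p = 0.259). Arm ratios did not overlap between stages for 32.2% of hairpins, so the separation seen for miR-425 was not rare. A fit of the log2 ratio between the dominant arms (those with the higher mean TPM) of 96 neighbouring hairpin pairs, on 1 strand within 10 kb, was added after seeing the data. Hairpins with an arm whose name is listed at more than 1 place were left out, since their reads cannot be assigned to a single hairpin. Arms of identical sequence under different names were not looked for, and many pairs share a hairpin within a cluster. The fit over pairs gave miR-191-5p over miR-425-5p a change of 1.77 (SE 0.52, limma unadjusted p = 0.0116, adjusted p = 0.0740), the 31st of 96 by size. This fit called 0 pairs (0%), with 34 at an unadjusted p under 0.05, and 41.7% of pairs did not overlap between stages. Without P0 replicate 1 the pair passed the threshold, with 1.48 (limma adjusted p = 0.0496), as did 60.4% of all pairs. It did not pass without any of the other 5 libraries (limma adjusted p from 0.0838 to 0.208) or with replicate number as a block (limma adjusted p = 0.142). For 38 of these pairs both arms of both hairpins averaged 1 TPM or more and had reads in every library, and the ratio of their 5p to 3p ratios did not overlap between stages for 34.2%. The difference of 1.91 between miR-191 and miR-425 was the 20th of these 38 by size.

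As a reference, each arm can be judged by its spread over all 6 libraries, given as the SD of log2(TPM + 1). In TPM the spread was 0.77 for miR-191-5p, 0.53 for miR-191-3p, 1.04 for miR-425-5p and 0.62 for miR-425-3p, against a median of 1.00 over the 670 miRNAs. Counted from the steadiest, these spreads ranked 195, 62, 359 and 96. After median-of-ratios scaling the spreads were 0.95, 0.24, 0.40 and 0.36, against a median of 0.86, and ranked 383, 8, 43 and 32. Over all 6 libraries miR-191-5p, a common reference, was thus the least steady of the 4 after scaling and the second least in TPM. P0 replicate 1 enters these spreads, with 5508 TPM of miR-191-5p against 1779 and 1451 in the other P0 libraries. Spreads without it were not computed, so the order of the arms may rest on that library. Counting error adds to the spread of the passenger arms in the shallow libraries. Over all 6 libraries the passenger arms still had the lowest spreads of the 4 on both scales.

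A list of 16 other miRNAs in common use as references gave a yardstick. Of the 16, 0 were called higher and 3 lower at P0 in TPM, namely miR-186-5p, miR-484 and miR-361-5p, where 1.34% of all tested miRNAs were called higher and 32.8% lower. The list had a median log2 fold change of −0.67 in TPM, against −1.20 for all tested miRNAs. After scaling 2 were called higher, miR-16-5p and let-7a-5p, and 0 lower, where 5.67% of all tested miRNAs were called higher and 5.22% lower. The median of the list was then 0.62 against −0.17. The lowest spread in TPM was that of let-7a-5p, a member of the let-7 family that accumulates as tissues differentiate, at 0.27, and the highest was that of miR-423-5p, at 2.05. let-7a-5p was also the least changed of the list in TPM, at 0.27, and miR-186-5p the most changed, at −2.85 (SE 0.80, limma adjusted p = 0.0183). In TPM, over all 6 libraries, 9 of the 16 were steadier than miR-191-5p and 11 were steadier than miR-425-5p. After scaling 12 were steadier than miR-191-5p and 0 steadier than miR-425-5p, so the order of the 2 guides as references turned with the scaling.

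**Figure D3:**
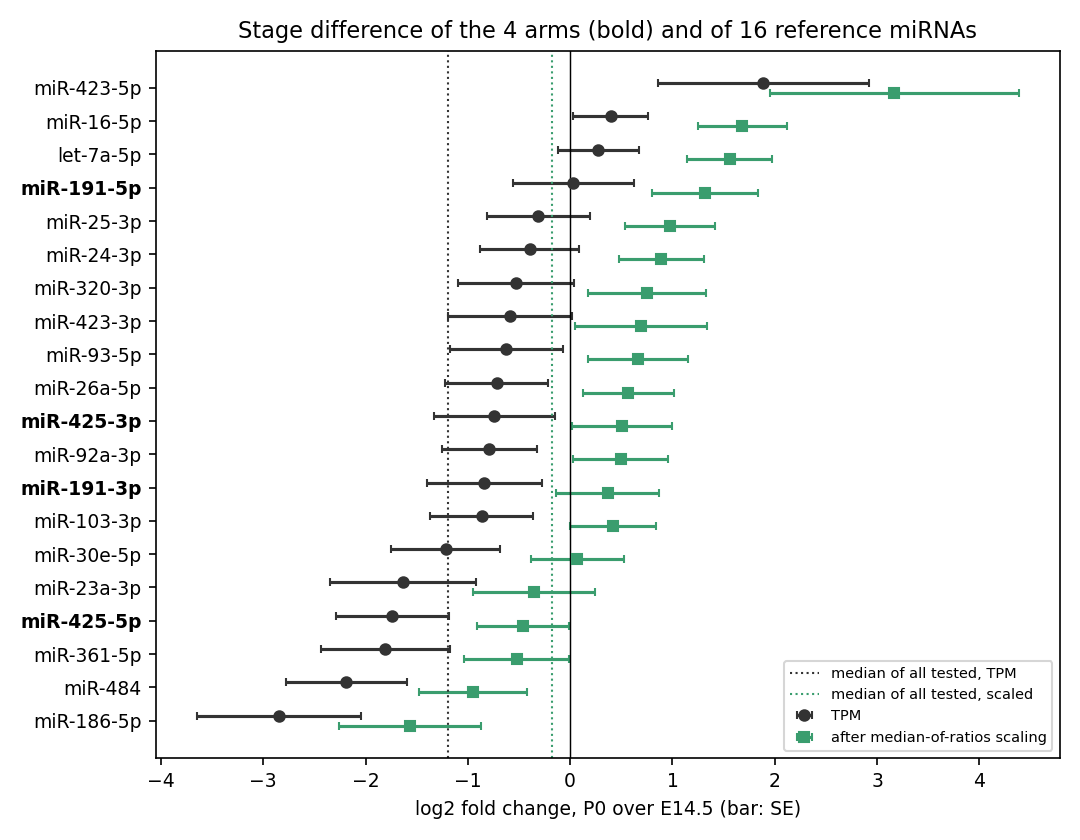
Limma log2 fold change with its SE, P0 over E14.5, for the 4 arms (bold) and 16 reference miRNAs in TPM (circles) and after median-of-ratios scaling (squares), with the median of all 670 tested miRNAs as dotted lines at −1.20 and −0.17. miR-191-5p lies near 0 in TPM and at 1.32 after scaling, and miR-425-5p lies at −1.74 and −0.46.

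**Figure D4:**
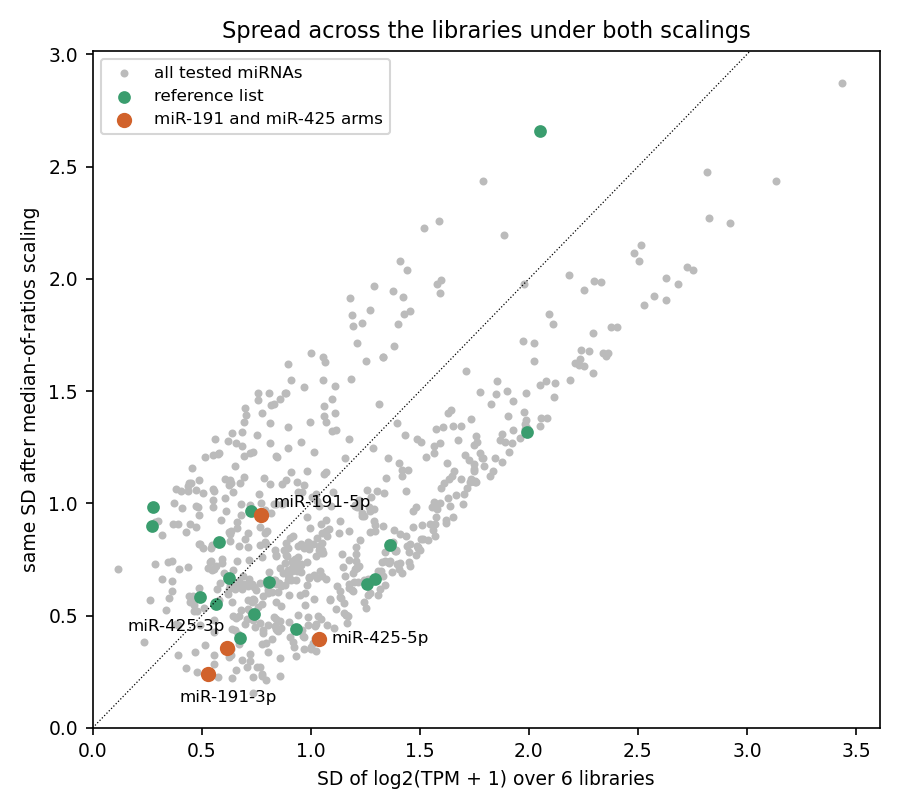
SD over the 6 libraries of log2(TPM + 1), before scaling on the x axis and after median-of-ratios scaling on the y axis, for the 670 tested miRNAs (grey), the reference list (green) and the 4 arms (orange), with equality dotted. miR-425-5p, miR-425-3p and miR-191-3p drop to 0.40 or below after scaling, while miR-191-5p rises from 0.77 to 0.95.

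The use of either guide as a reference was then carried through to the other miRNAs, in an alternative added after seeing the data. Scaling to 1 member moves all other miRNAs alike, so the medians restate that member's own difference between the stages and are no further test of it. With every library scaled to miR-191-5p, the other 669 miRNAs had a median log2 fold change of −1.24, and 23.5% were called, 0 higher and 157 lower (limma adjusted p under 0.05). With every library scaled to miR-425-5p, the median was 0.21, and 6.73% were called, 40 higher and 5 lower. The counts did not hold when a library was left out. With miR-191-5p they were 0 without E14.5 replicate 1, E14.5 replicate 3 or P0 replicate 2, 90 without P0 replicate 3, 286 without E14.5 replicate 2, and 235 without P0 replicate 1, of which 49 were higher. With miR-425-5p they were 253 without P0 replicate 1, of which 174 were higher and 79 lower, 2 without P0 replicate 2, 1 without E14.5 replicate 3, and 0 without any of the other 3.

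The arms were also compared by their profiles over the 6 libraries. Pearson correlations of log2(TPM + 1) are given as descriptions, since the libraries of a stage share its overall shift. In TPM the correlation was 0.28 between the guides, 0.25 between the arms of miR-191, 0.84 between the arms of miR-425 and 0.86 between the passenger arms. After scaling it was −0.24 between the guides, 0.56 and −0.27 between the arms of miR-191 and of miR-425, and 0.51 between the passenger arms. The guide miR-191-5p was closest to miR-425-3p on that scale, at 0.86.

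Among 431 other miRNAs averaging 10 TPM or more, the 5 profiles most like miR-191-5p in TPM were those of miR-361-3p, miR-532-5p, miR-146b-5p, miR-10a-3p and miR-181c-3p, with correlations of 0.99, 0.98, 0.98, 0.95 and 0.92. In each of them the highest library of E14.5 was replicate 2 and the highest of P0 was replicate 1, as for miR-191-5p, and their log2 fold changes lay between −0.31 and 0.11. These 5 were chosen for likeness to miR-191-5p over the same libraries, so the shared peaks and small fold changes follow from the choice. The neighbouring miR-425-5p ranked 189 in this order. The 5 profiles most like miR-425-5p were those of miR-350-5p, miR-3618-5p, miR-6399, miR-3618-3p and miR-20b-5p, with correlations of 0.98 for each. Their log2 fold changes in TPM were −2.81, −2.59, −3.25, −2.36 and −4.66, each called lower at P0 by limma, as were 32.8% of all tested miRNAs. They were chosen for likeness to a profile that itself fell, so these calls follow from the choice. In that order miR-191-5p ranked 322.

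**Figure D5:**
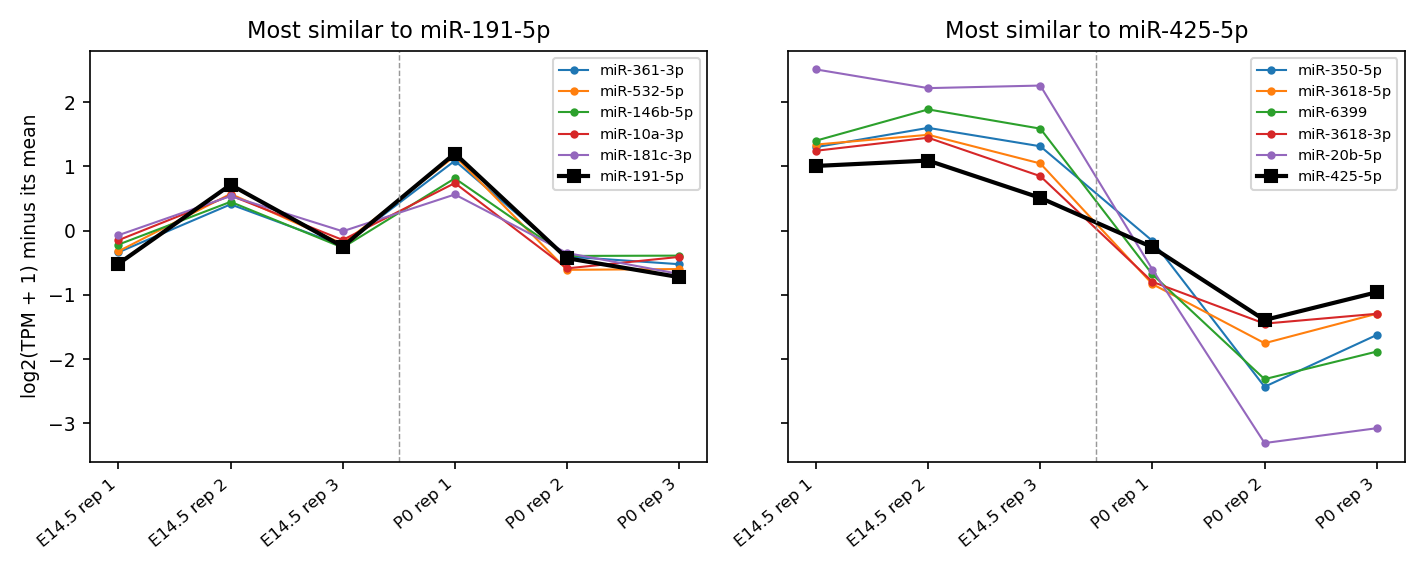
Log2(TPM + 1) minus its mean over the 6 libraries for miR-191-5p (left, black squares) and miR-425-5p (right, black squares) with the 5 miRNAs of the most similar profile. Lines only join points of the same miRNA, since replicates have no order; the left profiles peak in E14.5 replicate 2 and P0 replicate 1, and the right profiles are high in all 3 E14.5 libraries.

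Values of marker miRNAs of other cell types, and of miRNAs of like base composition, are set here beside the fall of miR-425-5p in TPM. In these pooled samples fewer cells of a type and less RNA per cell cannot be told apart. The 2 endothelial markers (miR-126a arms) were both called lower at P0 in TPM, where 32.8% of all tested miRNAs were called lower, with summed levels of 26608 to 44921 TPM at E14.5 and 5634 to 8158 at P0. Of 8 tubule epithelial markers 6 were called lower, with sums of 4887 to 24708 and 764 to 2550 TPM. Of 10 stromal and smooth muscle markers 6 were called lower, with sums of 125414 to 149949 and 57152 to 73680 TPM. Of 5 leukocyte markers 1 was called lower, with sums of 797 to 1540 and 507 to 751 TPM, and of 5 erythroid markers 1, with sums of 305 to 462 and 165 to 336 TPM. After scaling, where 5.22% of tested miRNAs were called lower, 1 of 2 endothelial, 3 of 8 tubule, 0 of 10 stromal, 0 of 5 erythroid and 0 of 5 leukocyte markers were called lower, and 1 leukocyte marker was called higher. No listed marker was at 0 in any library. E14.5 replicate 2, the E14.5 library with the most miR-191-5p, had the lowest TPM sum of its stage for all 5 lists. P0 replicate 1, the P0 library with the most miR-191-5p, had the highest sum of its stage for the endothelial, tubule and leukocyte lists, the middle for the stromal list (66705 TPM) and the lowest for the erythroid list (165 TPM). The part of these cells in the levels of the 4 arms was not tested.

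Base composition was compared within windows of 5 percentage points of GC. The 224 other miRNAs near miR-425-5p in GC had a median log2 fold change of −1.20 in TPM, against −1.74 for miR-425-5p itself. The 196 near miR-191-5p had a median of −1.01, against 0.03. The 187 near miR-191-3p and the 120 near miR-425-3p had medians of −0.90 and −0.60, against −0.84 and −0.74. The passenger arms thus lay close to their GC neighbours, and miR-191-5p lay farthest above its own. These values cover 582 of the 670 tested miRNAs, those with a RefSeq sequence, and the part of base composition was not tested.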

How the data were processed

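The authors deposited 1 table with a TPM value per mature miRNA and sample, alongside a baseMean (a normalised signal), log2 fold change with standard error, test statistic (a score), p-value and adjusted p-value. The labels' protocols name QIAseq libraries, and the submitters' processing notes list mm10, featureCounts and DESeq2 1.26.0 without roles. Trimming, aligner and use of molecular tags are not given in the sources used here. The sign of the authors' deposited log2 fold change was read from the sample values as P0 over E14.5. Each deposited TPM value times (end minus start) was a whole multiple of 1 step per library (100% of values, tolerance 1e-06), which gave the reads. Of copies of a miRNA the row with the highest total was kept.

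The main test, limma 3.58.1 with variance trend (R 4.3.3), was fitted to log2(TPM + 1) of the 670 miRNAs averaging 1 TPM or more, with stage as the only term and Benjamini-Hochberg adjustment. Fold changes on this scale understate changes of low miRNAs. Median-of-ratios factors used the 546 miRNAs with reads in every library. The fits of stage and of arm ratio were tested on simulated data with a fixed dispersion and no unusual library. That test therefore does not cover a library such as P0 replicate 1. Wilson intervals cover counting error only, whereas the 95% intervals of limma fold changes rest on the variation between libraries. For any member 3 reads equalled at most 1.19 TPM. Named miRNAs are the members, reference list items by count and extremes, and the 5 closest profiles per guide. Markers were listed by cell type. Members, lists and tests were chosen with earlier results of these data known. Replicates are separate litters per the labels. Same-numbered samples had deviation correlations of 0.19, 0.18 and 0.04, and those with unlike numbers had −0.18 to 0.08. These values do not settle whether the samples are paired. The numbers, which differ from those in the sample titles, were not taken as pairs, and a block by number is among the alternatives. Alternatives are in the closing section.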

Additional observations from a re-analysis of the deposited data

How the results depend on the processing

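Among the 14 alternatives to the TPM fit of each arm, the settings that rescale the libraries changed the arms most. With median-of-ratios scaling, upper-quartile scaling and limma-voom on the recovered reads, the log2 fold change of miR-425-5p was −0.46, −0.33 and −0.47, none past the threshold, and that of the passenger arms turned positive, at 0.37, 0.49 and 0.40 for miR-191-3p and at 0.50, 0.63 and 0.53 for miR-425-3p. The replicate block with median-of-ratios scaling gave −0.46, 0.37 and 0.50 for these 3. The replicate block in TPM changed no call of the 4 arms (miR-425-5p −1.74, limma adjusted p = 0.0324). With each library left out, the log2 fold change ranged from −0.56 to 0.40 for miR-191-5p, from −2.04 to −1.48 for miR-425-5p and from −1.16 to −0.47 for miR-425-3p, and that of the guides in the fit over neighbouring pairs from 1.45 to 2.10. No filter, a filter at 10 TPM and a pseudocount of 0.1 left each arm on its side of the threshold. Of the tested miRNAs, 229 were called in TPM, 9 of them higher, and 73 after median-of-ratios scaling, 38 of them higher, 63 with upper-quartile scaling, 28 with limma-voom, 67 with the block and median-of-ratios scaling, 45 when libraries were scaled to miR-425-5p, and 72 to 420 with each library left out (72 without E14.5 replicate 3, 420 without P0 replicate 1). After median-of-ratios scaling the count without 1 library ran from 0 to 332, as given above. The arm ratio ranged from 0.47 to 1.33 for miR-191 and from −1.22 to −0.87 for miR-425. After median-of-ratios scaling the arms kept their signs and stayed uncalled in all 8 alternatives run. Depth limits the precision of the passenger arms in the shallower libraries, with 54 reads of miR-191-3p in E14.5 replicate 1.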
